A study of Homo sapiens with 9 samples.

Results

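EDN1 encodes the precursor of endothelin-1, a secreted peptide, and GRPR encodes the receptor for gastrin-releasing peptide. These 2 genes, of 14884 with a named probe set, were chosen because their expression was far higher in HCT116 cells with a hairpin against H2A.X than in cells with a scrambled hairpin. Their own differences are therefore given as a description, without a test. Of the 7 partner genes that belong with them, namely EDN2, EDN3, EDNRA, EDNRB, GRP, NMBR and ECE1, 6 have a named probe set, and EDNRA was not analysed here. HCT116 is an epithelial cell line from a human colorectal carcinoma. RNA was taken from cells infected with lentivirus carrying an shRNA to the H2AFX transcript, which encodes the histone variant H2A.X (shH2A.X, 5 arrays), or carrying a scrambled shRNA (shCTRL, 4 arrays). Cells of both groups went through infection and puromycin selection and were cultured for 72 h in medium with 10% serum before total RNA was extracted. Each array received 100 ng of RNA, and the labels do not say whether replicates came from separate infections, so p-values measure the spread between these samples, which may be technical in part.

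Endothelin-1 is made as a long precursor that furin-type convertases cut to big endothelin-1, and endothelin-converting enzyme then trims this to the active peptide. The peptide acts on the receptors EDNRA and EDNRB and is best known as a vasoconstrictor made by vascular endothelium, although many epithelial tumours also make it. Gastrin-releasing peptide is the mammalian relative of amphibian bombesin. Its receptor GRPR, like the endothelin receptors, is a G protein-coupled receptor that signals through Gq to phospholipase C and calcium, and it is scarce in normal colonic epithelium but often present in colorectal carcinoma.

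The 250 bases before the transcript starts of EDN1 and GRPR are printed because the elements long studied in EDN1 transcription lie there and because several of the factors that bind them were measured on the same arrays. The sequences come from RefSeq on build GRCh38.p14, and each window ends at the base before its start. The promoter table gives 3 starts for EDN1, and the window printed, that of the most downstream start, lies at chr6:12290111-12290360 on the plus strand. The single GRPR window lies at chrX:16123315-16123564, also on the plus strand. Capitals mark matches to 6 motifs, each searched on both strands. For Jun and Fos dimers (AP-1) the letters were TGACTNA. For the zinc-finger GATA factors they were AGATAA, and for hypoxia-inducible factors, or HIF, the core ACGTG was used. The box bound by the general transcription machinery near many starts was searched as TATAAA. The E-box bound by Snail and ZEB proteins was searched as CACCTG, and the forkhead site of FOXO proteins as TGTTTAC.
EDN1: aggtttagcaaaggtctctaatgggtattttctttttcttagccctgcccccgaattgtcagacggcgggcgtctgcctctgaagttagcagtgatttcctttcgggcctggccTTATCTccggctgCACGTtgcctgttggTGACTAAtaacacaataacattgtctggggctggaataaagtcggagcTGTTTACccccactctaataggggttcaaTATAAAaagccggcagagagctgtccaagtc
GRPR: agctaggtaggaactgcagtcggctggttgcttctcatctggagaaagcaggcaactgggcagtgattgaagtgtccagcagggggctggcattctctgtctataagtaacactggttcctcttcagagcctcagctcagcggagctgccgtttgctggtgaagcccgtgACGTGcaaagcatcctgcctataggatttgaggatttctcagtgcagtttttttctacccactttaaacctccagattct
The EDN1 window held 5 matches, none overlapping another. A GATA match on the minus strand began 136 bases upstream of the start, a HIF core on the minus strand 123 bases upstream, an AP-1 match 108 bases upstream, a FOXO match 60 bases upstream and a TATA box 31 bases upstream. In the GRPR window the only match was 1 HIF core, which began 80 bases upstream. Over all 35116 windows of this length in the table, 9.8% held the AP-1 letters, 9.17% the GATA letters, 18.5% the HIF core, 10.7% the TATA box, 17.5% the E-box and 2.98% the FOXO letters. Of the other EDN1 windows, start number 2 held 1 AP-1 match, and start number 1 held 2 HIF cores and 1 E-box. These matches describe letters in a window, and the motifs were picked with the sequences in view.

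EDN1 (gene identifier 1906, chromosome 6, 12230516 to 12297194) was low on every shCTRL array and high on every shH2A.X array. Its only probe set read 7.71, 7.89, 7.79, 7.94 and 7.92 on shH2A.X arrays 1 to 5, against 4.28, 4.69, 4.42 and 4.51 on shCTRL arrays 1 to 4, in log2 expression units. The groups were separated by 3.01 log2 units between the lowest shH2A.X array and the highest shCTRL array, a gap far wider than the span of 0.24 within the shH2A.X arrays or of 0.41 within the shCTRL arrays. Means were 7.85 ± 0.10 (SD, n = 5) in shH2A.X cells and 4.48 ± 0.17 (SD, n = 4) in shCTRL cells. The difference was 3.37 on the log2 scale, or 10.4-fold, and it lay between 3.31 and 3.45 when any single array was left out. No shH2A.X array put EDN1 below its own array median, whereas 3 of the 4 shCTRL arrays did. No detection calls come with these values, so whether the control value lies above background is unknown. In bulk RNA of this kind, more expressing cells and more transcript per cell cannot be told apart.

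GRPR (gene identifier 2925, chromosome X, 16123565 to 16153518) showed a difference of similar size. Its probe set with the highest mean read 7.71, 7.70, 7.62, 7.93 and 7.86 on shH2A.X arrays 1 to 5, against 4.36, 4.34, 3.90 and 4.63 on shCTRL arrays 1 to 4. Again no shH2A.X array came near a shCTRL array, and the gap between the groups was 2.98 log2 units. Means were 7.76 ± 0.13 (SD, n = 5) in shH2A.X cells and 4.31 ± 0.30 (SD, n = 4) in shCTRL cells, a difference of 3.46 or 11-fold. Leaving out single arrays gave 3.32 to 3.57, with shCTRL array 3 the lowest of the controls. Likewise, 3 of the 4 shCTRL arrays put GRPR below their own median, and no shH2A.X array did.

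A second GRPR probe set gave the same direction with a smaller difference. It read 6.08, 6.11, 6.09, 5.63 and 5.90 on shH2A.X arrays, against 4.83, 4.66, 4.52 and 4.53 on shCTRL arrays. These groups did not overlap either, and shH2A.X array 4, the highest for the first probe set, was the lowest here. The means were 5.96 ± 0.20 (SD, n = 5) and 4.64 ± 0.14 (SD, n = 4) for shH2A.X and shCTRL cells, a difference of 1.33 or 2.51-fold. The size of the GRPR difference thus rested on the probe set, and averaging both gave 2.39. EDN1 has a single probe set, so no such comparison was possible for it.

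**Figure D1:**
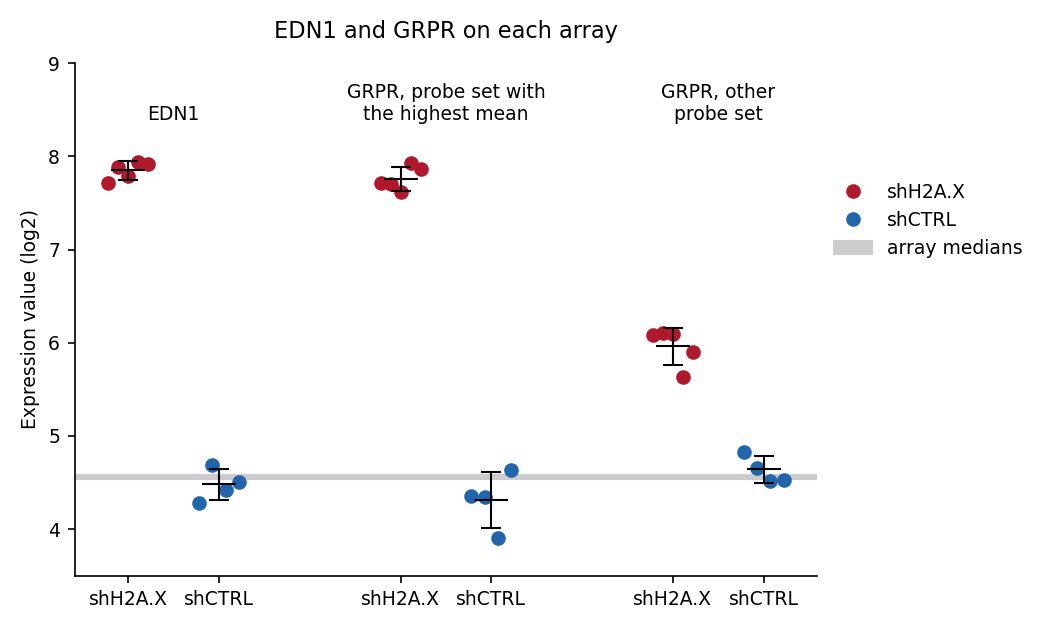
Log2 expression values of EDN1 and of both GRPR probe sets on each of the 9 arrays, with the mean and SD of each group as black bars and the range of the array medians as a grey band. Values are comparable within a probe set only. The shH2A.X arrays lie between 7.71 and 7.94 for EDN1 and between 7.62 and 7.93 for the main GRPR probe set, and the shCTRL arrays lie between 4.28 and 4.69 and between 3.90 and 4.63.

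Among all 14884 genes, GRPR had the second and EDN1 the third largest rise, and 4 genes differed by 3 log2 units or more. The place of GRPR rests on its probe set with the highest mean, since the other differed by 1.33. The probe set used was the brighter one in shH2A.X cells (7.76 against 5.96) but the dimmer one in shCTRL cells (4.31 against 4.64). Groups did not overlap in 22.8% of all genes, with shH2A.X higher in 12.1%. That share is the background for both members, which were picked from this contrast.

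The genes whose profiles over the 9 arrays lay closest to the members were each other and a short list of strongly raised genes. Likeness was the root mean square difference between log2 profiles, each centred on its own mean. For EDN1 the nearest were GRPR (0.20), THBS1 (0.26), BCL2L15 (0.28), TM4SF18 (0.28) and HMCN1 (0.31), whereas the median over all other genes was 1.68. For GRPR they were EDN1 (0.20), BCL2L15 (0.23), TM4SF18 (0.27), THBS1 (0.31) and MAMDC2 (0.32), with a median of 1.73. The measure includes the step between the groups, so a near neighbour here is a gene with a rise of about the same size. BCL2L15, a BCL2-family gene, was the gene with the largest rise, and its arrays read 7.13 to 7.36 in shH2A.X cells and 2.96 to 3.73 in shCTRL cells. THBS1, which encodes the matrix glycoprotein thrombospondin-1, averaged 10.07 ± 0.03 (SD, n = 5) in shH2A.X cells and 7.18 ± 0.15 (SD, n = 4) in shCTRL cells. TM4SF18, a tetraspan membrane protein gene, differed by 3.26, MAMDC2, a secreted proteoglycan gene, by 2.95, and HMCN1, which encodes the matrix protein hemicentin-1, by 2.86.

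The question that the partner genes address is whether the rest of each ligand and receptor system moved with the member. Of the 6 partners measured, 1 rose and none fell (16.7% called) at an adjusted p under 0.05 (limma, Benjamini-Hochberg adjustment over all genes), and 2 were higher at an unadjusted p under 0.05 with none lower. The background was 22.9% of all genes called in either direction, 12.2% as rises and 10.7% as falls, so the partners' share was near the background.

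ECE1, the main endothelin-converting enzyme, was the partner that rose. It read 9.39, 9.57, 9.54, 9.43 and 9.45 on shH2A.X arrays, against 8.87, 8.83, 8.89 and 8.87 on shCTRL arrays, with every shH2A.X array above every control. The rise was 0.61 log2 units (SE 0.06), or 1.53-fold, with a limma adjusted p of 1.94e-05. FURIN, a convertase that acts before ECE1 on the endothelin-1 precursor, read 8.17, 8.07, 8.03, 7.91 and 8.03 on shH2A.X arrays, against 7.58, 7.65, 7.57 and 7.5 on shCTRL arrays. It rose by 0.47 (SE 0.06), or 1.38-fold (limma adjusted p = 2.99e-04). PCSK7, a related convertase, differed by 0.06 (95% interval -0.08 to 0.19), and MME, the neprilysin gene, whose product degrades endothelins, by 0.12 (-0.10 to 0.35). Neither passed the test.

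The other endothelin peptide genes did not pass the test. EDN2 read 6.58, 6.40, 6.36, 6.71 and 6.25 on shH2A.X arrays, against 6.2, 6.52, 6.58 and 6.25 on shCTRL arrays, and the groups overlapped throughout. Its difference was 0.07 (95% interval -0.17 to 0.31, limma adjusted p = 0.715). EDN3 read 5.90, 5.89, 5.64, 5.43 and 5.82 on shH2A.X arrays, against 5.55, 5.60, 5.45 and 5.09 on shCTRL arrays. For EDN3, shH2A.X array 4 lay below 3 of the controls and the other shH2A.X arrays lay above all of them. Its difference of 0.31 (SE 0.12) did not pass (limma adjusted p = 0.0962), although the adjusted p was 0.0342 without shH2A.X array 4. EDNRB, the endothelin receptor measured here, differed by 0.04 (95% interval -0.19 to 0.27), and all 9 arrays put it below their own median.

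Over the endothelin list apart from EDN1, 7 of 10 genes were measured, of which 2 rose and none fell, or 28.6% against the 22.9% of all genes. The median difference was 0.12, against 0.00 over all genes. EDNRA, ECE2 and KEL were not analysed here.

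For the bombesin-like peptides the ligand of GRPR differed little between the groups. GRP read 5.98, 6.06, 5.93, 6.36 and 6.27 on shH2A.X arrays, against 6.12, 6.22, 6.16 and 5.97 on shCTRL arrays. The groups lay over each other, and the difference was 0.00 (95% interval -0.21 to 0.21, limma adjusted p = 0.995). NMB, which encodes the related peptide neuromedin B, differed by 0.21 (SE 0.09, limma adjusted p = 0.155). The 2 receptors closest to GRPR did not pass the test: NMBR, the neuromedin B receptor, differed by 0.07 (95% interval -0.10 to 0.24) and BRS3, an orphan relative, by 0.35 (0.07 to 0.63, limma adjusted p = 0.0738). All 9 arrays put both receptors below their own median. BRS3 passed without shH2A.X array 2 (limma adjusted p = 0.0381) and without shCTRL array 2 (0.0179).

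The gene that fell in this list acts on the peptide rather than the receptor. PAM, the enzyme that gives gastrin-releasing peptide and many other peptides their C-terminal amide, read 8.18, 8.06, 8.17, 8.02 and 8.11 on shH2A.X arrays, against 9.46, 9.46, 9.40 and 9.36 on shCTRL arrays. Every shH2A.X array was below every control by more than a whole log2 unit. The change was -1.31 (SE 0.06), or 2.48-fold lower in shH2A.X cells (limma adjusted p = 3.83e-08). CPE, the carboxypeptidase that trims precursors before PAM, averaged 7.18 ± 0.10 (SD, n = 5) in shH2A.X cells and 6.92 ± 0.16 (SD, n = 4) in shCTRL cells, and its difference of 0.25 did not pass (limma adjusted p = 0.0528). It did pass without shH2A.X array 2 (0.0419) and without shCTRL array 4 (0.0216). In all, 6 of the 7 listed genes other than GRPR were measured, and 1 fell while none rose (16.7% called against 22.9% of all genes, median difference 0.14). PCSK1 was not analysed here.

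**Figure D2:**
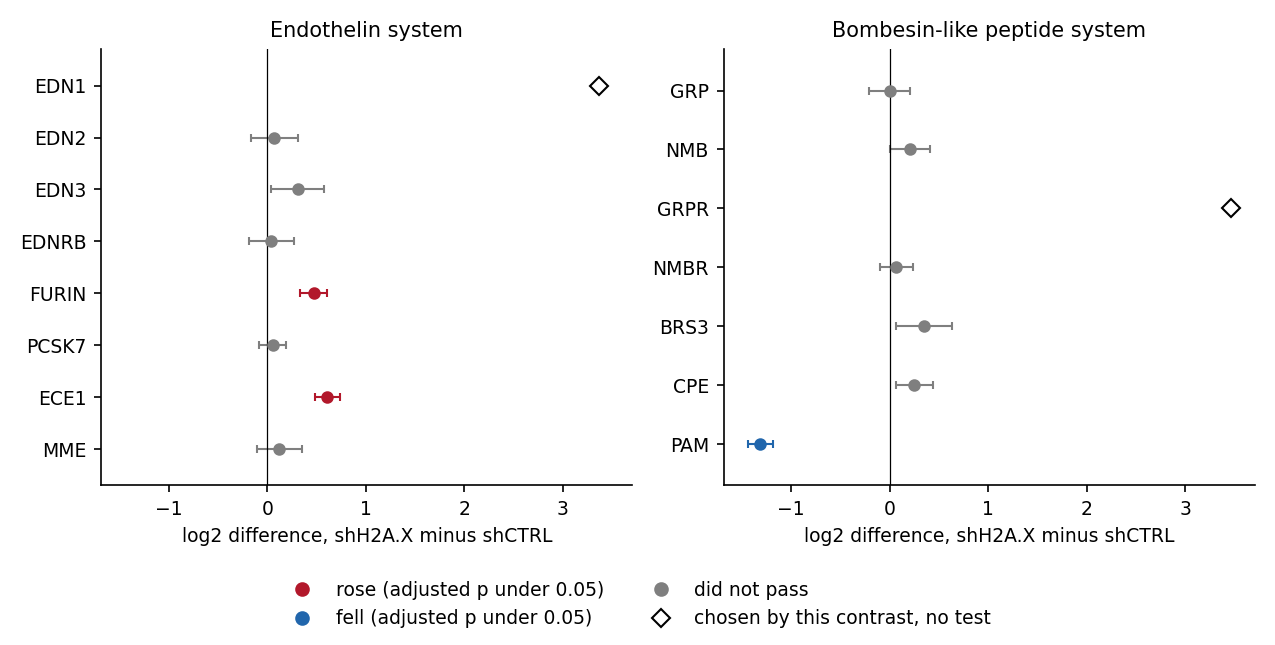
Log2 difference, shH2A.X minus shCTRL, for the measured genes of the endothelin system on the left and the bombesin-like peptide system on the right, with limma 95% intervals as bars. EDN1 at 3.37 and GRPR at 3.46 (diamonds, no test) stand far to the right of ECE1 at 0.61 and FURIN at 0.47, the genes that rose, and PAM at -1.31 is the gene that fell.

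Downstream of both receptors, Gq signalling was covered only in part, since 13 of 39 listed genes were measured and no measured gene was a Gq alpha subunit or a phospholipase C beta. Among the 13, 5 rose and 4 fell, which was 69.2% called against 22.9% of all genes, and the median difference was 0.06. The rises were led by RGS proteins, which speed the shut-off of G protein alpha subunits. RGS4 read 5.37, 5.36, 5.39, 5.40 and 5.25 on shH2A.X arrays, against 4.38, 4.37, 4.47 and 4.40 on shCTRL arrays, a rise of 0.95 (SE 0.06, limma adjusted p = 4.11e-07). RGS5 rose by 0.60 (SE 0.15), which missed the threshold in the equal-variance test after adjustment, and RGS3 by 0.32 (SE 0.06). RGS16, of the same family, fell by 0.49 (SE 0.10), so the family did not move one way. PRKD3, a diacylglycerol-activated kinase of the protein kinase D family, averaged 5.77 ± 0.18 (SD, n = 5) in shH2A.X cells and 6.98 ± 0.09 (SD, n = 4) in shCTRL cells, or 2.32-fold lower in shH2A.X cells (limma adjusted p = 2.60e-06). The remaining calls, named after their values were seen, were smaller. STIM1, the calcium sensor of the endoplasmic reticulum, and the receptor kinase gene GRK5 each rose by 0.29. The calcium-dependent tyrosine kinase gene PTK2B changed by -0.31 and the receptor kinase gene GRK6 by -0.24.

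Both endothelin-1 and gastrin-releasing peptide are known to activate the epidermal growth factor receptor through shed ligands. Of 14 genes listed for this route 11 were measured, with 1 rise and 3 falls (36.4% called against 22.9% of all genes, median difference 0.08). EREG, the epiregulin gene, read 9.52, 9.77, 9.78, 9.55 and 9.57 on shH2A.X arrays, against 11.47, 11.42, 11.46 and 11.41 on shCTRL arrays. The groups were far apart, and the change was -1.80 (SE 0.07), or 3.49-fold lower in shH2A.X cells (limma adjusted p = 1.59e-08). EGF itself rose by 0.59 (SE 0.11), although all 4 shCTRL arrays put it below their median. SHC1, an adaptor of the receptor, fell by 0.61 (SE 0.06). ERBB3, a related receptor named after its value was seen, changed by -0.38. The receptor gene EGFR differed by 0.14 and the sheddase gene ADAM17 by 0.13, and neither passed (limma adjusted p = 0.192 and 0.17).

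The transcription factors known to act on EDN1 include the AP-1, GATA, HIF and FOXO proteins whose motifs are marked in the promoter above, and others whose motifs were not searched. Of 25 factors 23 were measured, and 19 passed the test, 12 as rises and 7 as falls, which was 82.6% against 22.9% of all genes. The median difference was 0.24, against 0.00 over all genes. HIF1A and NR3C1 were not analysed here. Over the alternatives the number of factors called ran from 13, with the replicate block (9 rises and 4 falls), to 19.

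Members of AP-1, the dimer of Jun and Fos proteins whose element lies 108 bases upstream of the most downstream EDN1 start, moved in both directions. FOSL1 read 9.52, 9.52, 9.61, 9.54 and 9.48 on shH2A.X arrays, against 8.45, 8.37, 8.40 and 8.32 on shCTRL arrays, a rise of 1.15 (SE 0.05) or 2.22-fold (limma adjusted p = 6.84e-08). JUN read 8.18, 8.30, 8.27, 8.26 and 8.17 on shH2A.X arrays, against 7.29, 7.12, 7.17 and 7.20 on shCTRL arrays, and rose by 1.04 (SE 0.06) or 2.06-fold (limma adjusted p = 2.68e-07). JUNB went the other way, with 7.90, 8.06, 8.02, 8.01 and 7.81 on shH2A.X arrays and 8.90, 8.92, 8.93 and 8.85 on shCTRL arrays, a change of -0.94 (SE 0.06). In these 3 genes no shH2A.X array overlapped a control. Among the other AP-1 genes, FOSL2 (0.39) and JUND (0.34) rose, whereas FOS (-0.51) and FOSB (-0.26) fell, so 4 of the 7 AP-1 genes rose and 3 fell.

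GATA2, a zinc-finger factor that binds the GATA element of the endothelin-1 promoter in endothelial cells, averaged 6.43 ± 0.18 (SD, n = 5) in shH2A.X cells and 5.53 ± 0.31 (SD, n = 4) in shCTRL cells. It rose by 0.91 (SE 0.14, limma adjusted p = 5.74e-04). EPAS1, which encodes the oxygen-regulated factor HIF-2 alpha, read 6.94 to 7.01 on shH2A.X arrays and 7.74 to 7.97 on shCTRL arrays, a change of -0.88 (SE 0.06, limma adjusted p = 1.07e-06). Its partner ARNT did not pass the test. FOXO1, the forkhead factor whose letters lie 60 bases upstream of the same start, fell by 0.47 (SE 0.09). Of the SMAD genes, which act downstream of transforming growth factor beta, SMAD2 (0.45) and SMAD4 (0.26) rose and SMAD3 (-0.47) fell. The lipid-sensing receptor genes PPARG (0.58) and PPARA (0.55), the zinc-finger gene VEZF1 (0.58), NFKB1 (0.29) and the acetyltransferase gene EP300 (0.24) also rose, while the shear-induced factor gene KLF2 fell (-0.27). EP300 and KLF2 passed narrowly (limma adjusted p = 0.0444 and 0.0461), and their groups overlapped. Factors beyond FOSL1, JUN, GATA2, JUNB and EPAS1 are named after their values were seen.

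**Figure D3:**
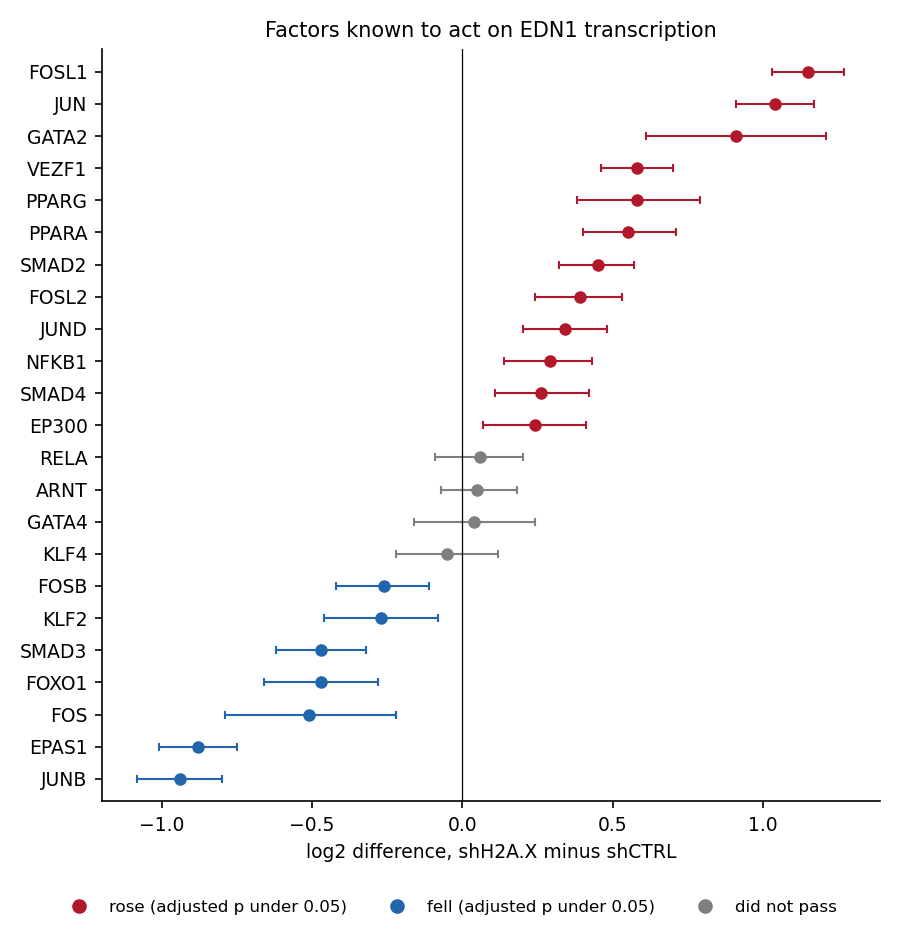
Log2 difference, shH2A.X minus shCTRL, with limma 95% intervals for the 23 measured factors known to act on EDN1 transcription, ordered by size. The list splits into 12 rises led by FOSL1 at 1.15 and JUN at 1.04 and 7 falls that end with EPAS1 at -0.88 and JUNB at -0.94.

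Other peptide hormones and their receptors were read on the same arrays. The members were chosen for the size of their rises, so smaller changes in other genes follow from that choice. Of 58 measured peptide receptors other than the members' families, 1 rose and 3 fell, or 6.9% called against 22.9% of all genes, and the median difference was 0.00. All differences lay between -1.01 and 0.42, beside 3.46 and 1.33 for the 2 GRPR probe sets. Many of these receptors, among them CCKBR, GALR1, SSTR2, NPY5R and MC4R, lay below the array median on all 9 arrays. Such dim genes may lie at background, where a change would not be seen. NTSR1, the neurotensin receptor gene, read 9.16, 8.92, 8.90, 8.76 and 8.73 on shH2A.X arrays, against 9.87, 9.98, 9.82 and 9.95 on shCTRL arrays. It was lower on every shH2A.X array, by 2.01-fold in the mean (limma adjusted p = 8.78e-06). F2RL2, a protease-activated receptor gene named after its value was seen, changed by -0.38 (SE 0.07). OPRL1, the nociceptin receptor gene, rose by 0.23 (SE 0.07, limma adjusted p = 0.0374), and CALCRL, the receptor gene for calcitonin gene-related peptide and adrenomedullin, fell by 0.44 (SE 0.14, limma adjusted p = 0.0473). Both had overlapping groups. OPRL1 lost the call without shH2A.X array 1, 3 or 5 or shCTRL array 1, 2 or 4, with limma adjusted p up to 0.0971, and also with the trend and robust prior (0.0778) or all probe sets as the unit (0.0966). CALCRL lost it without shH2A.X array 2, 4 or 5 or shCTRL array 1, 2 or 4, with limma adjusted p up to 0.13, and also after quantile normalization (0.0592), after centring on array medians (0.0557), with all probe sets as the unit (0.111) and in the equal-variance test after adjustment over all genes (0.127).

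Of 37 measured peptide ligands other than EDN1 and its family, 3 rose and 5 fell, or 21.6% called against 22.9% of all genes, with a median difference of -0.01. SCG2, which encodes secretogranin II, the precursor of secretoneurin, had the largest rise. Its arrays read 7.22, 6.99, 6.6, 6.69 and 6.84 in shH2A.X cells, against 4.75, 5.01, 4.34 and 5.03 in shCTRL cells, and the groups were well apart. The rise was 2.09 (SE 0.16), or 4.24-fold (limma adjusted p = 2.57e-06), beside 3.37 for EDN1, which was chosen for its rise. UCN2, the urocortin 2 gene, rose by 0.87 (SE 0.11) and GAST, the gastrin gene, by 0.27 (SE 0.08). The groups overlapped for GAST, with a limma adjusted p of 0.036. GAL, the galanin gene, read 8.0, 7.93, 7.95, 7.46 and 7.24 on shH2A.X arrays, against 8.5, 8.30, 8.68 and 8.68 on shCTRL arrays, a change of -0.82 (SE 0.16, limma adjusted p = 0.00275). UTS2, the urotensin II gene, fell by 0.51 with an adjusted p of 0.0471. The remaining falls, named after their values were seen, were UCN (-0.39), VGF (-0.39) and ADM (-0.37), the last the gene of the vasodilator adrenomedullin. GAST lost the call when any single array other than shH2A.X array 3 was left out, with limma adjusted p up to 0.0879. UTS2 lost it without any single array other than shH2A.X array 4 or shCTRL array 3, with limma adjusted p up to 0.131. Both also lost it with all probe sets as the unit, at limma adjusted p of 0.0925 for GAST and 0.11 for UTS2, and in the equal-variance test after adjustment over all genes (0.0673 and 0.132).

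**Figure D4:**
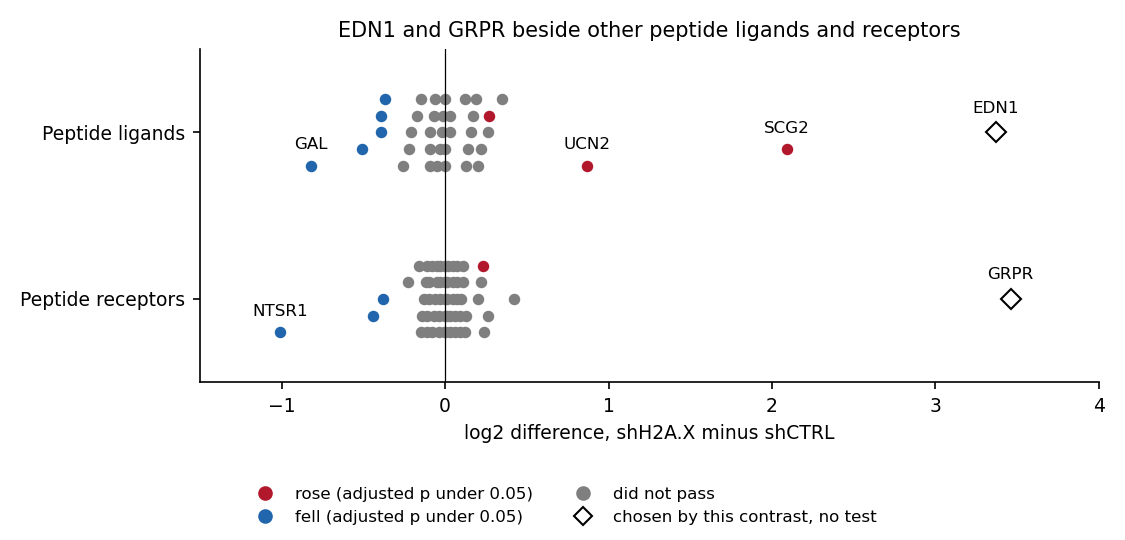
Log2 difference, shH2A.X minus shCTRL, for 37 other peptide ligands in the upper row and 58 other peptide receptors in the lower row, each point a gene, with points spread vertically for legibility only. EDN1 and GRPR (diamonds, no test), chosen for the size of their rises, lie at 3.37 and 3.46. SCG2 lies at 2.09, and the other receptors lie between -1.01 and 0.42.

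Endothelin-1 is a product of endothelium, and peptide receptors such as GRPR are common in neuroendocrine cells, so markers of cell types other than colonic epithelium were read on the same arrays. Of 12 endothelial markers 9 were measured, and 1 of these, ESAM, an endothelial adhesion molecule gene, rose by 0.32 (SE 0.09, limma adjusted p = 0.0278), with the call lost without shH2A.X array 1 or shCTRL array 1, 2 or 4 (adjusted p up to 0.0684), with all probe sets as the unit (0.0741) and in the equal-variance test after adjustment over all genes (0.0659). That made 11.1% called against 22.9% of all genes. At an unadjusted p under 0.05, 3 of the 9 were higher and none lower. The markers PECAM1, VWF, FLT1, TIE1, EMCN and ERG lay below the array median on all 9 arrays. KDR averaged 4.71 in shH2A.X cells and 4.40 in shCTRL cells, and CLDN5 5.93 and 5.80, and neither passed the test. CLDN5 lay above the median on every array, as KDR did on the shH2A.X arrays. The summed linear level of the 9 markers was 274 to 327 in shH2A.X cells and 245 to 266 in shCTRL cells, so the groups did not overlap. Among single genes the groups did not overlap in 22.8%, with shH2A.X higher in 12.1%. ESAM weighed heavily in this sum, with means of 6.92 in shH2A.X cells and 6.6 in shCTRL cells. The part of the sum in the EDN1 difference was not tested. Of 10 neuroendocrine markers 7 were measured, with SCG2 the gene that rose and NCAM1, a neural adhesion molecule gene, the gene that fell (-0.77, SE 0.08). These 2 genes were 28.6% of the 7 measured, against 22.9% called among all genes. The summed level of the 7 markers was 273 to 345 in shH2A.X cells and 226 to 241 in shCTRL cells. SCG2 weighed heavily in it, with means of 6.87 and 4.78, whereas the median log2 difference over the 7 was 0.02. CHGB and SCG3 lay below the array median on all 9 arrays. None of the 3 smooth muscle or 3 fibroblast markers measured passed the limma test. At an unadjusted p under 0.05, none of the smooth muscle markers was called and 1 fibroblast marker was lower. The summed level of the smooth muscle markers was 160 to 225 in shH2A.X cells and 152 to 253 in shCTRL cells. For the fibroblast markers it was 46.4 to 60 in shH2A.X cells and 53.8 to 61.8 in shCTRL cells. The groups overlapped in both lists, and LUM and DCN lay below the array median on all 9 arrays. Of the 2 leukocyte markers measured CD68, a lysosomal glycoprotein gene also expressed outside macrophages, rose by 0.90 (SE 0.07). That was 50% called, from 2 genes, against 22.9% of all genes, and both were higher at an unadjusted p under 0.05. Their summed level was 182 to 216 in shH2A.X cells and 104 to 118 in shCTRL cells. Most of it came from CD68, with means of 7.5 and 6.6. CD14 lay below the median on all 9 arrays. Of 11 colonic epithelial markers 9 were measured. Of these 9 markers 3 passed the test, or 33.3% against 22.9% of all genes. CEACAM5 lay below the array median on all 9 arrays, VIL1 and KRT20 on 1 shCTRL array each, and the others on none. The summed level of the 9 markers was 5300 to 5830 in shH2A.X cells and 5450 to 5680 in shCTRL cells, so the groups overlapped. KRT20 rose by 1.00 (SE 0.12) and KRT19 by 0.64 (SE 0.05), whereas EPCAM, an epithelial adhesion molecule gene, fell by 0.67 (SE 0.05).

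Genes next to the members on their chromosomes gave a measure that the choice of members did not use. Of the 12 neighbours with a named probe set, 3 on each side of each member, 1 rose and none fell, or 8.33% against 22.9% of all genes. Of these, the nearest to EDN1 was HIVEP1, which encodes a zinc-finger protein. It lies 18 kb from the edge of the annotated EDN1 gene at 12230516. The 3 EDN1 starts lie further in, from 12288019 to 12290361. HIVEP1 read 7.20, 7.20, 7.25, 7.13 and 7.29 on shH2A.X arrays, against 7.15, 7.18, 7.19 and 7.08 on shCTRL arrays. Its difference was 0.06 (95% interval -0.06 to 0.19). On the far side PHACTR1, a regulator of protein phosphatase 1 and actin, differed by -0.11 (-0.33 to 0.11). The other genes around EDN1 were TMEM170B (0.31), ADTRP (0.05), GFOD1 (-0.10) and SIRT5 (0.19), none of which passed the test, although TMEM170B passed without shH2A.X array 1 (limma adjusted p = 0.034). PHACTR1 and ADTRP lay below the array median on all 9 arrays.

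Around GRPR the named neighbours lie at least 420 kb away. CA5BP1, a pseudogene, differed by 0.01 and CTPS2, a CTP synthase gene, by 0.02, with intervals of -0.23 to 0.25 and -0.12 to 0.17. CLTRN (-0.04), MIR548AM (-0.15) and S100G (-0.06) did not pass either and lay below the array median on all 9 arrays. MIR548AM lies within CTPS2. PIR-FIGF, a readthrough transcript 632 kb from GRPR, was the neighbour that rose, by 0.34 (SE 0.08, limma adjusted p = 0.00823).

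**Figure D5:**
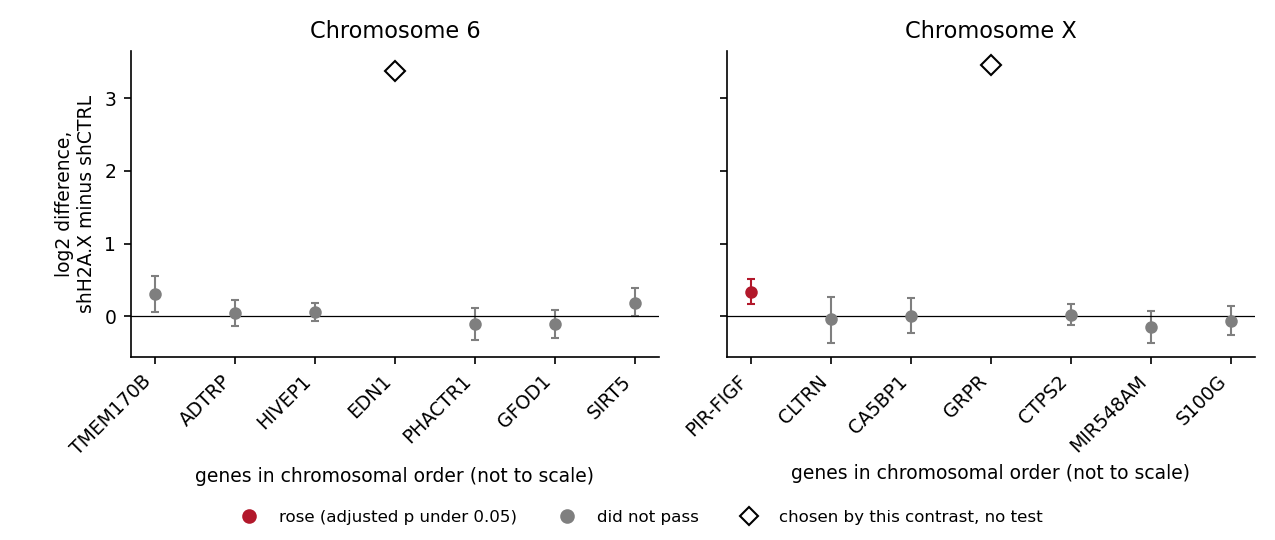
Log2 difference, shH2A.X minus shCTRL, for EDN1 and GRPR (diamonds, no test) and the 3 genes with a named probe set on each side, in chromosomal order and not to scale, with limma 95% intervals. EDN1 at 3.37 and GRPR at 3.46 stand alone, and the neighbours lie between -0.15 and 0.34.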

How the data were processed

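Expression was measured in 5 shH2A.X and 4 shCTRL RNA samples of HCT116 cells on Human Gene 2.0 ST arrays (Affymetrix). According to the methods and the submitters' processing notes, the authors used Expression Console to obtain CHP files and Partek 6.6 for normalization. The deposited values are log2 expression values normalized by the authors, for 53617 probe sets. How background and normalization were handled is not given in the sources used here. Array medians lay between 4.54 and 4.58, no pair of arrays held identical values, and the median SD within groups was 0.152. No detection calls come with the values, and the number of arrays limits the precision. In the methods both groups have 5 arrays. The labels, which were followed, list 4 for shCTRL.

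Gene names came from the platform annotation, which names 16098 probe sets with 1 symbol, none with several, and leaves 37519 unnamed here. Symbols matched the RefSeq table of GRCh38.p14 by gene identifier, which also gave positions. Where a gene had several probe sets, that with the highest mean value was used (779 of 14884 genes). The transcript of the shRNA target has no probe set named here and was not analysed here.

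Differences are shH2A.X minus shCTRL. The functions lmFit and eBayes of limma 3.58.1 (R 4.3.3) were run on all genes, and p-values were adjusted by Benjamini-Hochberg over all 14884 genes, with an adjusted p under 0.05 as the threshold. The fit was tested on simulated data. Figures were drawn with matplotlib 3.10.9 in Python 3.11.15. EDN1, GRPR, the gene lists and the rules were chosen with earlier results of these data known. Named genes are the measured genes of both peptide systems, the 3 largest rises and 2 largest falls of each other list among genes that passed, up to 3 markers per cell type that passed, the chromosomal neighbours and the 5 genes nearest in profile to each member. As alternatives, the values were quantile normalized or centred on array medians. Others were the mean of all probe sets, all probe sets as the unit, a filter on dim genes, replicate number as a block, leaving out each array, a two-sided equal-variance test (the methods' t-test), a mean-variance trend with robust prior, and array weights.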

Additional observations from a re-analysis of the deposited data

Results flagged for a closer look

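In 118 groups of arrays, 4 held an array that stood apart from the rest of its group, and chance alone flags about 1 in 20 groups. EDNRB read 4.49 on shH2A.X array 4, against 4.02 to 4.14 on the other shH2A.X arrays. RGS4 read 5.25 on shH2A.X array 5, below the 5.36 to 5.40 of the others. Among the controls, PCSK7 read 7.28 on shCTRL array 4, with 7.36 to 7.37 on the rest, and GAST read 5.42 on shCTRL array 1, with 5.48 to 5.49 on the rest. Neither member of the pair, EDN1 or GRPR, had such an array.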

How the results depend on the processing

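The EDN1 difference moved by less than the spread between replicates under quantile normalization, centring, the replicate block, array weights and leaving out each array. The mean of all probe sets could not change it, since EDN1 has only 1. The other alternatives change the test or the genes tested, so none was computed for the members' differences. That of GRPR was 2.39 as the mean of both probe sets. Of 57 tested genes named by rule, 36 passed the test. Of these, 30 kept their direction and call under every alternative that gave them a value, none turned round, and 6 lost the call under at least 1 (RGS5, OPRL1, CALCRL, GAST, UTS2 and ESAM). Of the 21 that did not pass, 4 passed under at least 1 alternative (EDN3, BRS3, CPE and TMEM170B). Replicate numbers did not pair the samples: same-numbered arrays correlated at 0.02 or less, and 0 of 4 shCTRL arrays correlated best with their own number. With the replicate block, 2 partner genes (EDN3 joining ECE1), 2 other receptors and 5 other ligands were called, OPRL1, CALCRL, GAST and UTS2 lost the call (limma adjusted p from 0.0597 to 0.181), GRP differed by -0.04 and CLTRN by 0.03. In the bombesin-like list 2 genes were called with the filter on dim genes and 3 with the trend and robust prior, and 2 other receptors were called with all probe sets as the unit. GRP differed by -0.01 with array weights. Leaving out each array gave 1 to 2 partner genes, 1 to 2 neighbours, 1 to 3 bombesin-like genes and 2 to 4 other receptors called. Among genes that did not pass, those that changed sign without some array ranged from -0.04 to 0.09 for EDNRB, -0.06 to 0.05 for GRP, -0.0049 to 0.08 for ADTRP, -0.18 to 0.03 for CLTRN, -0.06 to 0.10 for CA5BP1, -0.02 to 0.06 for CTPS2 and -0.12 to 0.04 for S100G. The methods' t-test called 4761 genes at its threshold and 3213 after Benjamini-Hochberg adjustment. Depth cannot be read from these arrays, and dim genes such as EDNRB, NMBR and BRS3 may lie at background. The cause of each change was not tested.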
